A study of Mus musculus with 5480 samples.

Results

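Early airway smooth muscle cells of the mouse lung at postnatal day 1 (P1) were compared with myofibroblast and smooth muscle precursors at embryonic day 18.5 (E18.5). The members were chosen by the subtype and the age that the labels give each cell, and they made up 285 of the 5480 cells of the series. The precursors were 101 cells of a female and 123 cells of a male mouse at E18.5. The early airway smooth muscle cells were 38 cells of a female and 23 cells of a male mouse at P1 that breathed normal air. The series holds single mesenchymal cells of distal lung from 10 mice, where a group is 1 female and 1 male: E18.5, the normal-air ages P1, P7 and P21, and hyperoxia (oxygen-enriched air) at P7. Libraries were made in plates with the Tn5 transposase, which cuts DNA and adds sequencing adapters at once. Strain, genotype, litter and the dose of oxygen are not given in the sources used here.

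The mouse was the replicate, with 2 mice a side. Age and subtype name differed together between both sides, so their parts cannot be told apart. In the 4 mice compared, both females were in 1 sequencing run and both males in another, and 1 female precursor cell came from neither. A difference within a sex is therefore also a difference within a run, and sex and run cannot be told apart. How the subtype names were given is not stated in the sources used here. Names drawn from the expression of the same cells would share information with the values compared. No early airway smooth muscle cell was labelled at E18.5, and 7 precursor cells were labelled in each P1 mouse. These P1 precursors made up 1.11% of the female's and 1.23% of the male's cells. The precursors at E18.5 made up 16.1% and 21.2% of the cells of their mice, and early airway smooth muscle made up 6.00% and 4.04% at P1.

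Reads were counted per gene without molecular identifiers and summed per mouse and subtype. The precursor sums held 85991567 reads in the female and 126513080 in the male. The early airway smooth muscle sums held 25987079 and 26496356 reads. A median precursor cell held 867549 reads in the female and 846844 in the male, against 588268 and 1137090 in early airway smooth muscle. After each cell was thinned to 100000 reads, a median cell showed 2810 and 3259 genes among the precursors and 2834 and 3148 among early airway smooth muscle. Levels are given as CPM, reads scaled to a common library size after TMM normalization, for the female and then the male. CPM are not divided by gene length, so they are compared between groups and not between genes.

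Smooth muscle shortens when calcium activates myosin light chain kinase and myosin pulls on actin filaments. Calponin and transgelin lie along those filaments, and desmin filaments tie the contractile units together. Many genes of this apparatus are switched on by serum response factor, which binds a DNA element named the CArG box and works with the cofactor myocardin. In the lung around birth, airway smooth muscle wraps the conducting airways, while myofibroblasts of the forming alveolar walls carry the PDGF receptor Pdgfra and lay down elastin.

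Across 14197 tested genes, 95 passed an adjusted p of 0.05 (0.669%), which is the threshold for a gene to be called here. Of these, 72 were higher in early airway smooth muscle at P1 (0.507% of the genes tested) and 23 were lower (0.162%). The median log2 difference over all tested genes was −0.19, so calls are read against a small shift to lower values at P1. Leaving out 1 mouse gave 26 calls (without the E18.5 male) to 170 (without the P21 male), and 30 without the E18.5 female, 49 without the P1 male, 63 and 64 without a P7 mouse and 161 without the P21 female. A count of genes whose 4 mice do not overlap between both sides is weaker evidence than a call: 2345 genes lay wholly higher at P1 (16.5%) and 4214 wholly lower (29.7%). DESeq2 on the same counts called 950 genes, 369 higher and 581 lower, and these included all 95. Averaging each cell's CPM in place of summing reads, with limma in place of edgeR, gave 228 calls, 100 higher and 128 lower. The excess of higher over lower calls was not shared by those fits. It was kept with limma-voom on the sums (114 higher and 102 lower) and with RLE scaling (82 and 26). A filter of at least 10 CPM in both mice of a group also kept it (101 and 42). In the plot of all tested genes, the named genes can be followed by symbol.

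**Figure D1:**
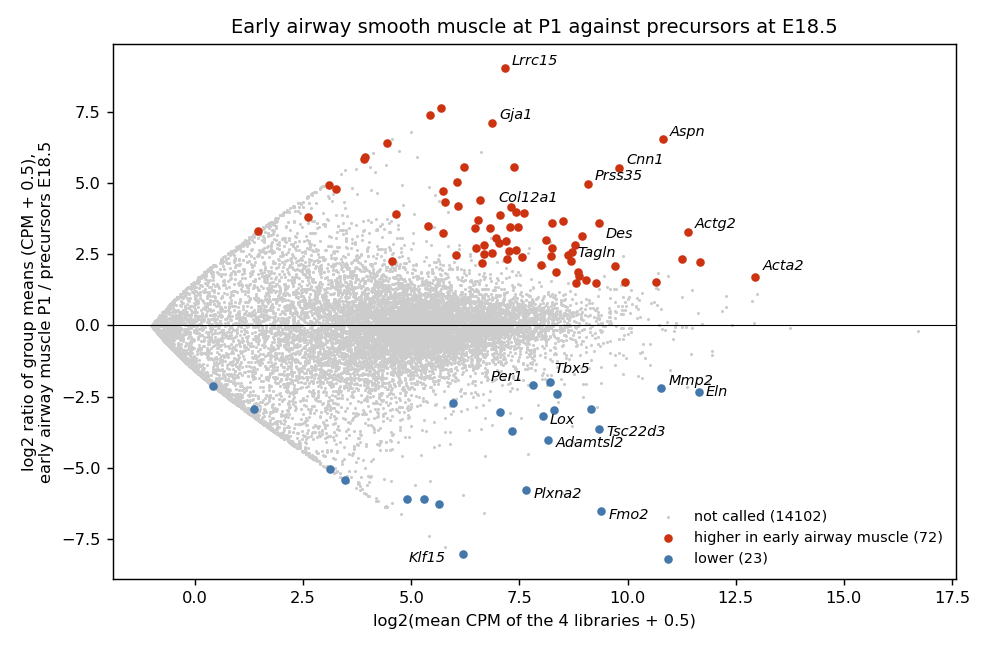
The tested genes by mean level of both sides (CPM, log axis, x) and log2 difference of early airway smooth muscle at P1 from precursors at E18.5 (y), with the 95 called genes coloured and a selection labelled. Cnn1, Aspn and Des lie high above 0, and Fmo2, Plxna2 and Eln lie below it.

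Of 25 listed genes of the contractile apparatus, all tested, 5 were called higher in the P1 cells and 0 lower, against 0.507% called higher over all genes, and 23 had a log2 difference above 0. The mice of both sides did not overlap for 22 genes that were higher and for 1 that was lower, against 16.5% and 29.7% over all genes. The median log2 difference of the list was 1.05, against −0.19 over all genes. The summed level of the list was 14558 and 13137 CPM in precursors and 39001 and 42142 CPM in early airway smooth muscle. The 5 called genes were Acta2, Actg2, Tagln, Cnn1 and Des.

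The sequences before the start of these genes are shown because many genes of this apparatus have serum response factor as a known regulator. They are the 250 bases before the gene start in RefSeq on mouse build GRCm38.p6, 5′ to 3′ on the gene's strand. Windows were found for 21 of the 25 genes, among them Acta2, Cnn1 and Des of the called genes. Capitals mark a CArG box: CC, then 6 bases that are each A or T, then GG, on either strand, or a 10-base stretch with 1 base that departs from it. Matches that overlap each other would be joined in the capitals. Acta2 lies at chr19:34255374-34255623 on the minus strand, Cnn1 at chr9:22099003-22099252 on the plus strand, Des at chr1:75360042-75360291 on the plus strand and Myl9 at chr2:156775214-156775463 on the plus strand. Myl9, the regulatory light chain of smooth muscle myosin, was not called and is shown for its exact match.
Acta2: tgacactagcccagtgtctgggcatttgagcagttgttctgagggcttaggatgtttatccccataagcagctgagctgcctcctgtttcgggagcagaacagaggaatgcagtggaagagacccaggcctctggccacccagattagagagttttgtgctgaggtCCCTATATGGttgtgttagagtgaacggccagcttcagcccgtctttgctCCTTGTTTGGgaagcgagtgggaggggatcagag
Cnn1: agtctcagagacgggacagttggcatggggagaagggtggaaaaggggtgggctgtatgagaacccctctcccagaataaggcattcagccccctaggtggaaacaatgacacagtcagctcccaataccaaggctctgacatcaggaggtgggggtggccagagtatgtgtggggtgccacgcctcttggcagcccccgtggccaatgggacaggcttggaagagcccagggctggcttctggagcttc
Des: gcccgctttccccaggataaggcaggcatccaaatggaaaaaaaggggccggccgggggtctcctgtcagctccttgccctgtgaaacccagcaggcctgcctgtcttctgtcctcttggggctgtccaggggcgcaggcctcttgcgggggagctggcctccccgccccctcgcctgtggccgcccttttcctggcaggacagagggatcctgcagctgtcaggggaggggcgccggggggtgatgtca
Myl9: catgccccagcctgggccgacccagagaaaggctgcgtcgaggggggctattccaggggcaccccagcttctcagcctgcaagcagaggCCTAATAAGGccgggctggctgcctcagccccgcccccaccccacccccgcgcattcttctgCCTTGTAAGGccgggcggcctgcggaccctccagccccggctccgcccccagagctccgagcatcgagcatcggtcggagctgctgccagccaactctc

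An exact CArG box stood in the windows of 5 of the 21 contractile genes (23.8%), which were Cnn2, Ldb3, Myl6, Myl9 and Vcl. The share over all 27025 genes with a window was 1.62%. With up to 1 departing base the counts were 12 of 21 (57.1%) and 21.1% of all genes. Acta2 had 2 such near matches, whose first bases lay 84 and 34 bases before the start. The exact match of Myl9 began 161 bases before its start. The windows of Cnn1 and Des, which were both called, held no match, and those of Cnn2, Ldb3, Myl6, Myl9 and Vcl belong to genes that were not called. A match describes letters and is not a measured binding site, and boxes outside these windows were not looked for.

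Cnn1, which encodes the actin-binding calponin of smooth muscle, was at 53.7 and 20.7 CPM in the precursors and at 2014 and 1477 CPM in early airway smooth muscle. Both P1 mice lay far above both E18.5 mice, and the log2 difference was 5.65 ± 0.52 (SE, adjusted p = 0.00137). Desmin, the muscle intermediate filament encoded by Des, was at 99.8 and 98.3 CPM and then at 984 and 1403 CPM. Its log2 difference was 3.66 ± 0.37 (adjusted p = 0.00197). Both calls held in each of the 10 fits that left out 1 mouse.

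The gamma actin of visceral smooth muscle, Actg2, was at 552 and 441 CPM in precursors and at 4354 and 5384 CPM at P1 (log2 3.38 ± 0.37, adjusted p = 0.00264). Without the E18.5 male its adjusted p was 0.0576. Tagln, the actin-binding transgelin, was at 146 and 135 CPM and then at 629 and 734 CPM (log2 2.33 ± 0.31, adjusted p = 0.00773). Its call was lost without the E18.5 female (0.11), the E18.5 male (0.173) or the P1 male (0.0668).

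Acta2, the alpha actin of smooth muscle that also marks myofibroblasts, was already high in the precursors at 4049 and 3410 CPM. It was at 11759 and 12480 CPM in early airway smooth muscle, a log2 difference of 1.75 ± 0.28 (adjusted p = 0.0227). Its call was lost without either E18.5, either P1 or either P7 mouse, with adjusted p from 0.0566 to 0.39. Acta2 and Actg2 are near-identical in their coding parts, and how reads that match both were counted is not given in the sources used here.

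Myosin heavy chain and several partners of actin did not pass the threshold. Myh11, the smooth muscle myosin heavy chain, was at 730 and 543 CPM in precursors and 1202 and 1322 CPM at P1 (log2 1.06, adjusted p = 0.3). Myl9 was at 1882 and 1542 CPM and then 4100 and 3946 CPM (log2 1.29, adjusted p = 0.109). The actin-filament protein tropomyosin 2, Tpm2, was at 321 and 273 CPM and then 1775 and 1446 CPM (log2 2.50, adjusted p = 0.0527). Pdlim3, a protein of the actin anchorage sites, was at 708 and 763 CPM and then 2150 and 3096 CPM (log2 1.89, adjusted p = 0.0648). For each of these the 2 P1 mice were above the 2 E18.5 mice without passing the test.

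**Figure D2:**
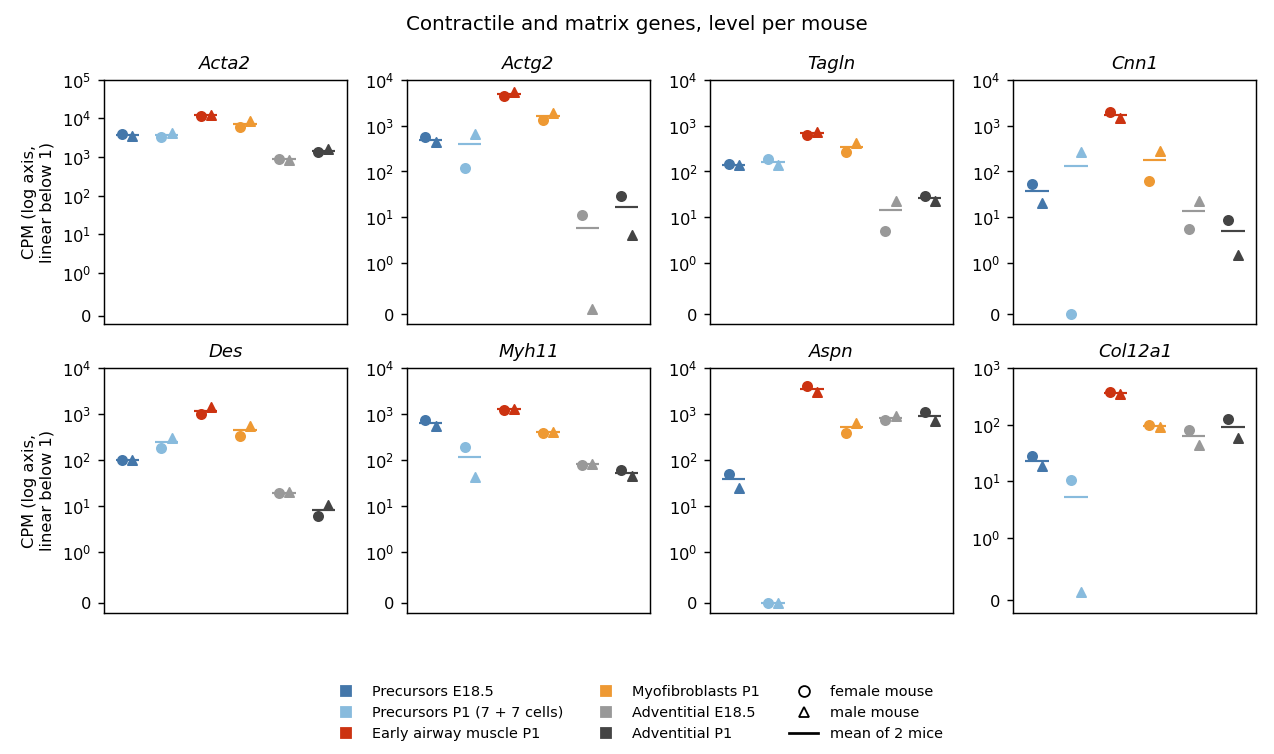
Level in each mouse (CPM, log axis) of 8 genes that were higher in early airway smooth muscle, with 1 point per female and male mouse. The groups are precursors at E18.5 and P1, early airway smooth muscle and myofibroblasts at P1, and adventitial fibroblasts at E18.5 and P1. Both early airway smooth muscle mice lie above both E18.5 precursor mice in every panel, and Myh11 was not called.

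Single cells showed the same order. A Cnn1 read was found in 13.9% of the female's and 8.33% of the male's precursor cells after thinning, and in 84.2% and 86.4% of early airway smooth muscle cells. Without thinning the shares were 19.8% and 11.4% against 84.2% and 87.0%. In adventitial fibroblasts of the P1 mice, which should lack Cnn1, thinned shares were 5.22% and 3.23%. Before thinning, their median cell held 613613 and 900882 reads. The 95% exact (Clopper-Pearson) interval of the thinned share ran from 7.79% to 22.2% in the female precursors and from 68.8% to 94.0% in the female P1 cells, for counting error only. Actg2 was found in 61.4% and 50.0% of precursor cells and in all cells of both P1 mice. Des was found in 33.7% and 35.0% of precursor cells and in 89.5% and 90.9% of P1 cells. Acta2 was found in 94.1% and 89.2% of precursor cells and in all P1 cells, so for Acta2 the difference lay in the level per cell: the median cell held 3073 and 2498 CPM in precursors and 8879 and 10610 CPM at P1.

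**Figure D3:**
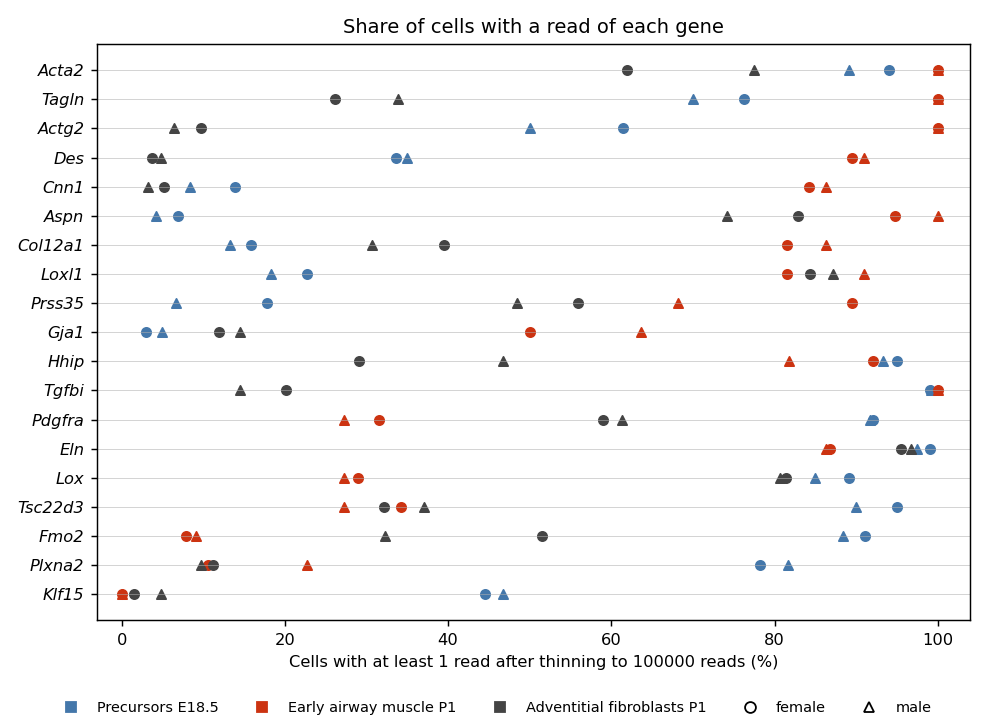
Share of cells with at least 1 read of each gene after thinning to 100000 reads per cell (percent, x), for 19 genes, in precursors at E18.5, early airway smooth muscle at P1 and adventitial fibroblasts at P1, with 1 point per mouse. Cnn1 and Aspn pass from under 15% to over 80% of cells, and Fmo2 and Tsc22d3 go the other way.

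Of 23 listed regulators of contractile genes and of myosin, edgeR called 0, 4 had an unadjusted p under 0.05 and 15 had a log2 difference above 0. DESeq2 called 2 higher and 0 lower, and limma-voom 0. Over all 14197 tested genes edgeR called 0.669%, 1334 had an unadjusted p under 0.05, and DESeq2 called 950 and limma-voom 216. The list's median log2 difference was 0.15. Myocd, the cofactor myocardin, was at 260 and 440 CPM in precursors and 440 and 338 CPM at P1, and the mice overlapped. Among 17 tested calcium and ion channel genes 1 was called, and the median log2 difference was 1.06. That gene was Kcnj8, a subunit of ATP-sensitive potassium channels, at 275 and 250 CPM and then 752 and 833 CPM (log2 1.66 ± 0.29, adjusted p = 0.033). Kcnj8 lost its call without either E18.5, either P1 or either P7 mouse (adjusted p 0.0819 to 0.43). Of 15 tested receptors and enzymes of muscle tone, edgeR called 0, 7 had an unadjusted p under 0.05, DESeq2 called 1 higher and 4 lower, and limma-voom called 1. Ednrb, the endothelin B receptor, was at 4930 and 3744 CPM in precursors and 635 and 1297 CPM at P1 (log2 −2.15, adjusted p = 0.0871).

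Genes named as markers of airway muscle split into those that were higher and those that were not. Of 10 markers, 4 were called higher (Actg2, Cnn1, Des and Tnc) and 0 lower, against 0.507% and 0.162% over all genes. The median log2 difference was 1.60. Tnc, the matrix protein tenascin C, was at 296 and 344 CPM and then 1198 and 1511 CPM (log2 2.14 ± 0.32, adjusted p = 0.0164), and its call was lost without either E18.5 or either P1 mouse (adjusted p 0.0542 to 0.233). Hhip, an inhibitor of hedgehog signalling, was at 1726 and 1699 CPM in the precursors and 820 and 954 CPM at P1 (log2 −0.90, adjusted p = 0.32). Lgr6, a receptor of the Wnt pathway, was at 295 and 260 CPM and then 208 and 187 CPM (adjusted p = 0.76). Enpp2, the secreted enzyme autotaxin, was at 1234 and 1529 CPM and then 715 and 550 CPM (adjusted p = 0.252). The cardiac actin gene Actc1 was at 0.233 and 80.0 CPM in precursors and at 264 and 260 CPM at P1 (adjusted p = 0.64). After thinning, an Actc1 read was found in 23.7% and 22.7% of P1 cells. The median P1 cell held 0 and 1.20 CPM and the upper quartile was at most 2.90 CPM, so that a minority of the cells carried the level of each P1 sum.

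The 10 largest rises included matrix, cell-junction and surface genes outside the contractile list. Aspn, the small proteoglycan asporin, was at 50.7 and 24.9 CPM in precursors and at 4020 and 3088 CPM in early airway smooth muscle. The log2 difference was 6.60 ± 0.53 (adjusted p = 0.00107). An Aspn read was found in 6.93% and 4.17% of thinned precursor cells and in 94.7% and 100% of P1 cells. Aspn is listed here as a myofibroblast marker, and it was the 1 called gene of the 8 on that list. Over all tested genes 0.669% were called.

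Gja1, the gap junction protein connexin 43, was at 0.511 and 1.82 CPM and then at 290 and 172 CPM (log2 7.89 ± 0.67, adjusted p = 0.00107). Dpt, the matrix protein dermatopontin, was at 6.09 and 6.90 CPM and then 217 and 437 CPM (log2 5.63 ± 0.40), with the lowest adjusted p of all genes at 0.000664. Enpp1, which makes pyrophosphate outside the cell, was at 1.28 and 3.81 CPM and then 147 and 143 CPM (log2 6.03 ± 0.54). Netrin 1, the guidance cue encoded by Ntn1, was at 3.77 and 3.10 CPM and then 107 and 150 CPM. Prss35, a serine-protease-like secreted protein, was at 49.6 and 16.6 CPM and then 1301 and 798 CPM. Each of these calls, that of Aspn included, held in the 10 fits without 1 mouse.

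For 3 of the largest rises the precursors held few reads, so that fitted values depend on a prior count. Anxa8, a calcium-dependent membrane-binding annexin, had 3 reads over both precursor sums against 91.3 and 80.4 CPM at P1. The ratio was 6345, with an exact 95% interval of 2170 to 30777 for counting error. An Anxa8 read was found in 7 of 38 and 3 of 23 P1 cells (18.4% and 13.0%, unthinned), so a minority of cells carried that level. Fam167a had 4 precursor reads and was at 141 and 64.2 CPM at P1. Lrrc15, a cell-surface protein of matrix-forming stromal cells, had 13 precursor reads and was at 93.7 and 478 CPM at P1; the male P1 mouse was the higher one. The calls of Anxa8 and Fam167a were lost without either E18.5 mouse (adjusted p 0.0716 to 0.11), and that of Lrrc15 was kept in all 10 such fits.

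Of 13 fibrillar and associated collagen genes 2 were called higher and 0 lower, against 0.507% and 0.162% over all genes. The mice of both sides did not overlap for 6 higher and 5 lower genes, against 16.5% and 29.7% over all genes. The median log2 difference was 0.66. Col12a1, a collagen that decorates fibrils in tissue under tension, was at 27.4 and 18.8 CPM in precursors and 378 and 349 CPM at P1 (log2 4.04 ± 0.38, adjusted p = 0.00156). Col5a1, a chain of collagen V, was at 98.9 and 91.5 CPM and then 306 and 527 CPM (log2 2.17 ± 0.36, adjusted p = 0.026), and it lost its call without either E18.5 mouse, the P1 male or either P7 mouse (adjusted p 0.0599 to 0.39). Without the P1 male the median of the list was −0.12. Of 13 tested matricellular genes, which signal between matrix and cell, 3 were called higher (Tnc, Ctgf and Aspn), against 0.507% over all genes. The median of these 13 was 1.16. Ctgf, the connective tissue growth factor, was at 28.3 and 18.7 CPM and then 155 and 157 CPM (adjusted p = 0.0432), and was lost without either E18.5, P1 or P7 mouse (0.0881 to 0.471). Tgfbi, a secreted matrix adhesion protein, was not called, at 4732 and 5616 CPM and then 8617 and 13567 CPM (adjusted p = 0.151).

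Of the genes with the lowest adjusted p that were not among the largest rises, Hmcn1 encodes hemicentin 1 of the pericellular matrix and was at 65.7 and 57.4 CPM and then 528 and 453 CPM. Ptgis, the prostacyclin synthase, was at 6.85 and 9.60 CPM and then 220 and 147 CPM. Cd9, a tetraspanin of the cell surface, was at 15.2 and 17.4 CPM and then 336 and 160 CPM. Each had an adjusted p of 0.00219. The calls of Ptgis and Cd9 held without any 1 mouse, and that of Hmcn1 was lost without the E18.5 male (0.0538).

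Genes of the elastic fibre went in both directions. Of 14 listed genes, 1 was called higher and 2 lower, against 0.507% and 0.162% over all genes. The median log2 difference was −0.14, near that of all genes. Elastin (Eln), the elastic protein itself, was at 5945 and 4742 CPM in precursors and 1108 and 1010 CPM in early airway smooth muscle (log2 −2.27 ± 0.27, adjusted p = 0.00448). Both precursor mice lay above both P1 mice. The Eln call was lost without the E18.5 female (0.0692), the P1 female (0.0516) or the P1 male (0.0668). Lox, the lysyl oxidase that crosslinks elastin and collagen, was at 531 and 416 CPM and then 71.0 and 31.4 CPM (log2 −3.20 ± 0.54, adjusted p = 0.0288). It was lost without either E18.5, either P1 or either P7 mouse (adjusted p 0.0507 to 0.241).

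Loxl1, a second lysyl oxidase that acts on elastic fibres, went the other way, from 31.9 and 26.6 CPM to 272 and 381 CPM (log2 3.51 ± 0.41, adjusted p = 0.00369), and lost its call without the E18.5 male (0.0834). Mfap4, a microfibril-associated glycoprotein, was at 2376 and 1678 CPM and then 697 and 420 CPM (log2 −1.82, adjusted p = 0.0527). Fbn1, the microfibril protein fibrillin 1, was at 382 and 415 CPM and then 395 and 407 CPM. Without the E18.5 female the median of the list was 0.045. An Eln read was found in 99.0% and 97.5% of thinned precursor cells and in 86.8% and 86.4% of P1 cells, so a majority of cells still held elastin RNA. The median cell held 6289 and 3976 CPM of Eln in precursors and 646 and 547 CPM at P1.

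**Figure D4:**
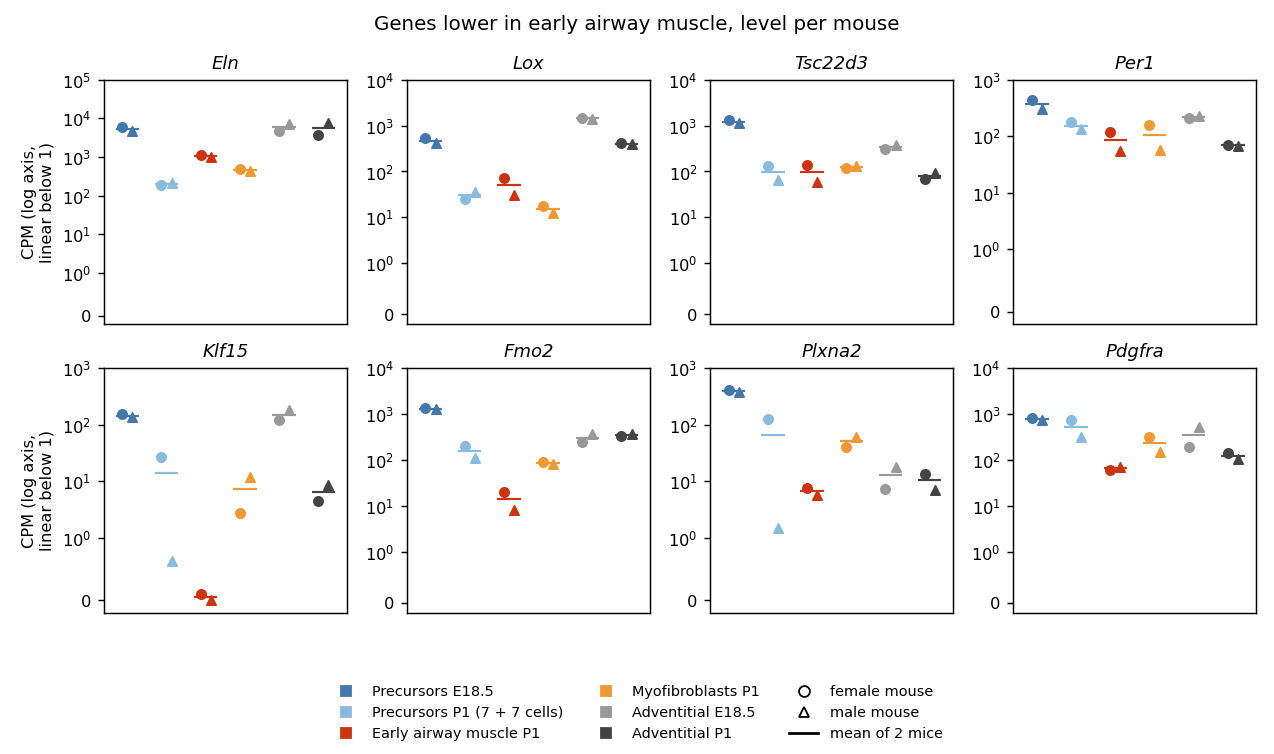
Level in each mouse (CPM, log axis) of 8 genes that were lower in early airway smooth muscle at P1, with 1 point per female and male mouse. The groups are precursors at E18.5 and P1, early airway smooth muscle and myofibroblasts at P1, and adventitial fibroblasts at E18.5 and P1. Both early airway smooth muscle mice lie below both E18.5 precursor mice in every panel, and Pdgfra was not called.

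Of 16 listed genes known to respond to glucocorticoids, 3 were called lower at P1 and 0 higher. Glucocorticoid hormone rises in the fetus before birth and acts through the receptor Nr3c1 on lung mesenchyme. Of the listed targets, 14 had a log2 difference below 0, and the mice did not overlap for 13 lower genes and 1 higher gene. Over all tested genes 0.162% were called lower and 29.7% lay wholly lower. The median log2 difference was −2.23, against −0.19 over all genes, and −1.77 without the P1 male.

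Tsc22d3, the glucocorticoid-induced leucine zipper, was at 1299 and 1118 CPM in precursors and 135 and 58.2 CPM in early airway smooth muscle (log2 −3.57 ± 0.52, adjusted p = 0.0129). Its call was lost without the E18.5 female (0.11) or the P1 male (0.069). A Tsc22d3 read was found in 95% and 90.0% of thinned precursor cells and in 34.2% and 27.3% of P1 cells. Per1, a clock gene that the hormone also induces, was at 429 and 304 CPM and then 117 and 55.8 CPM (log2 −2.12 ± 0.37, adjusted p = 0.0329). It lost its call in 7 of the 10 fits without 1 mouse, which were those without a mouse at E18.5, P1 or P7 or without the P7 hyperoxia female (adjusted p 0.0503 to 0.39).

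Klf15, a transcription factor induced by the hormone, was at 156 and 135 CPM in precursors, with 3 reads over both P1 sums. The precursor level was 2646 times the P1 level, with an exact 95% interval of 905 to 12831 for counting error (adjusted p = 0.0432). Its call was lost without either E18.5, either P1 or either P7 mouse (0.0678 to 0.235). After thinning, 44.5% and 46.7% of precursor cells held a Klf15 read. None of 38 and 22 P1 cells did, which allows shares of up to 7.89% and 13.6%.

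The other listed targets did not pass the threshold. Fkbp5, a chaperone of the receptor, was at 138 and 158 CPM in precursors and 5.18 and 17.2 CPM at P1 (adjusted p = 0.57). Klf9 was at 181 and 158 CPM and then 38.3 and 24.9 CPM (adjusted p = 0.0652). Zbtb16 was at 77.1 and 66.2 CPM and then at 5.11 and 0 CPM, and Hif3a was at 105 and 119 CPM and then at 11.5 and 0 CPM. Dusp1, a phosphatase that many stimuli induce, was at 2472 and 2510 CPM and then 1843 and 1710 CPM (adjusted p = 0.666). Sgk1 was at 29.2 and 24.5 CPM and then 28.6 and 30.9 CPM. Sgk1 and Nfkbia, an inhibitor of NF-kappa-B, were the 2 listed targets with a log2 difference above 0, and Nfkbia was at 692 and 957 CPM and then 1034 and 1152 CPM (adjusted p = 0.834). The receptor gene Nr3c1, which is not on the list, was at 516 and 462 CPM and then 168 and 186 CPM (adjusted p = 0.0968). It was looked up after the values of the list were seen.

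The 10 largest falls, with Klf15 and Tsc22d3 among them, also held metabolic, receptor and matrix genes. Fmo2, a flavin monooxygenase of the lung, was at 1354 and 1297 CPM in precursors and 19.8 and 7.94 CPM in early airway smooth muscle (log2 −6.51 ± 0.56, adjusted p = 0.00107). A read was found in 91.1% and 88.3% of thinned precursor cells against 7.89% and 9.09% of P1 cells. Plxna2, a receptor for semaphorin guidance cues, was at 412 and 381 CPM and then 7.58 and 5.81 CPM (log2 −5.84 ± 0.60, adjusted p = 0.0021). Both calls held without any 1 mouse.

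Adamtsl2, a secreted protein that binds microfibrils, was at 456 and 627 CPM and then 31.0 and 34.6 CPM (log2 −3.98 ± 0.48, adjusted p = 0.00448), and lost its call without the E18.5 male (0.0538). Opcml, a cell adhesion molecule, was at 290 and 304 CPM and then 10.8 and 33.4 CPM. Fmo1, a relative of Fmo2, was at 73.0 and 81.0 CPM and then 1.11 and 0.150 CPM. Fas, the death receptor, was at 67.0 and 49.8 CPM and then 0 and 0.712 CPM. Sft2d2 was at 68.2 and 129 CPM and then 1.18 and 0.375 CPM, and Lcorl was at 209 and 266 CPM and then 9.37 and 47.1 CPM. The calls of Opcml, Fmo1, Fas, Sft2d2 and Lcorl were lost in 3 to 8 of the 10 fits without 1 mouse, with adjusted p of up to 0.383.

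Pdgfra, the PDGF receptor that marks alveolar myofibroblasts, differed by as much as several called genes but did not pass the threshold. It was at 809 and 734 CPM in precursors and at 60.1 and 71.9 CPM in early airway smooth muscle (log2 −3.41 ± 0.81, adjusted p = 0.128). A Pdgfra read was found in 92.1% and 91.7% of thinned precursor cells and in 31.6% and 27.3% of P1 cells. Tbx5, a transcription factor of lung mesenchyme, was at 529 and 423 CPM and then 135 and 102 CPM (log2 −1.95 ± 0.33, adjusted p = 0.0303). It was the 1 called gene of 29 listed mesenchymal transcription factors, and was lost without either E18.5, either P1 or either P7 mouse (0.066 to 0.324). Over all tested genes 0.162% were called lower. Of the 29 factors, 21 had a log2 difference below 0, with a median of −0.43, also with the 2 genes without P1 reads at their bound.

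Signalling pathways of the lung mesenchyme held no called gene in the edgeR fit, which called 0.669% of all tested genes. These were hedgehog (12 genes tested), BMP (18), TGF beta (17), Wnt (22), Notch (7), FGF (17) and PDGF (5). An unadjusted p under 0.05 was found for 7 FGF, 5 BMP, 5 TGF beta, 4 Wnt, 3 hedgehog, 2 PDGF and 0 Notch genes. DESeq2 called 4 FGF, 4 BMP, 2 TGF beta, 5 Wnt, 1 hedgehog, 2 PDGF and 0 Notch genes. Limma-voom called 2 BMP and 1 PDGF gene of these lists. Over all 14197 tested genes, 1334 had an unadjusted p under 0.05, and DESeq2 called 950 and limma-voom 216. Medians of the log2 difference were 0.20 for hedgehog, 0.16 for BMP, −0.02 for TGF beta, −0.28 for FGF and 0.35 for Notch genes. Wnt genes had a median of −0.75, with 17 of 22 below 0, and PDGF genes one of −1.17. The BMP, Wnt and FGF medians were the same with genes that had no reads on 1 side set to their bound. In the IGF list of 10 genes, Igfbp7, which binds insulin-like growth factors, was called, at 25.9 and 25.6 CPM in precursors and 261 and 183 CPM at P1 (adjusted p = 0.0139). Igfbp7 lost its call without either E18.5 mouse or the P1 female (0.0748 to 0.185).

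Cell division, energy metabolism and stress lists also held no called gene, against 0.669% over all tested genes. They held 20 tested genes of cell division, 16 of glycolysis, 27 of oxidative phosphorylation and 15 of the hypoxia response. The others held 22 antioxidant genes, 17 immediate early genes and 16 imprinted growth genes. An unadjusted p under 0.05 was found for 7 hypoxia, 5 imprinted, 3 antioxidant, 2 glycolysis, 2 immediate early, 1 cell division and 0 oxidative phosphorylation genes. DESeq2 called 6 hypoxia genes and 1 imprinted gene, all lower at P1, and 2 antioxidant genes and 1 immediate early gene, all higher. It called 0 of the other lists. Limma-voom called 2 hypoxia, 2 imprinted and 1 antioxidant gene and 0 of the others. Over all 14197 tested genes, 1334 had an unadjusted p under 0.05, and DESeq2 called 950 and limma-voom 216. Of the oxidative phosphorylation genes 20 were above 0, with a median log2 difference of 0.20. Below 0 were 11 of 15 hypoxia genes (median −0.70), 12 of 16 glycolysis genes (−0.63) and 11 of 16 imprinted genes (−0.70). The same held for 9 of 22 antioxidant genes (median 0.15) and 7 of 17 immediate early genes (0.06). The median over all tested genes was −0.19. The cell division median was −0.01, but the sexes differed, with medians of 0.53 between the females and −1.46 between the males. The summed level of that list was 355 and 411 CPM in precursors and 496 and 178 CPM at P1. Among 16 basement membrane genes edgeR called 0, DESeq2 3 and limma-voom 1, with 7 at an unadjusted p under 0.05. Among 11 integrin genes edgeR called 0, DESeq2 1 and limma-voom 0, with 3 at an unadjusted p under 0.05. The basement membrane median was −0.76, and −1.26 when the fit held the 4 libraries compared alone. The immediate early genes, which cell dissociation can induce, summed to 30760 and 27890 CPM in precursors and 30128 and 27525 CPM at P1.

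**Figure D5:**
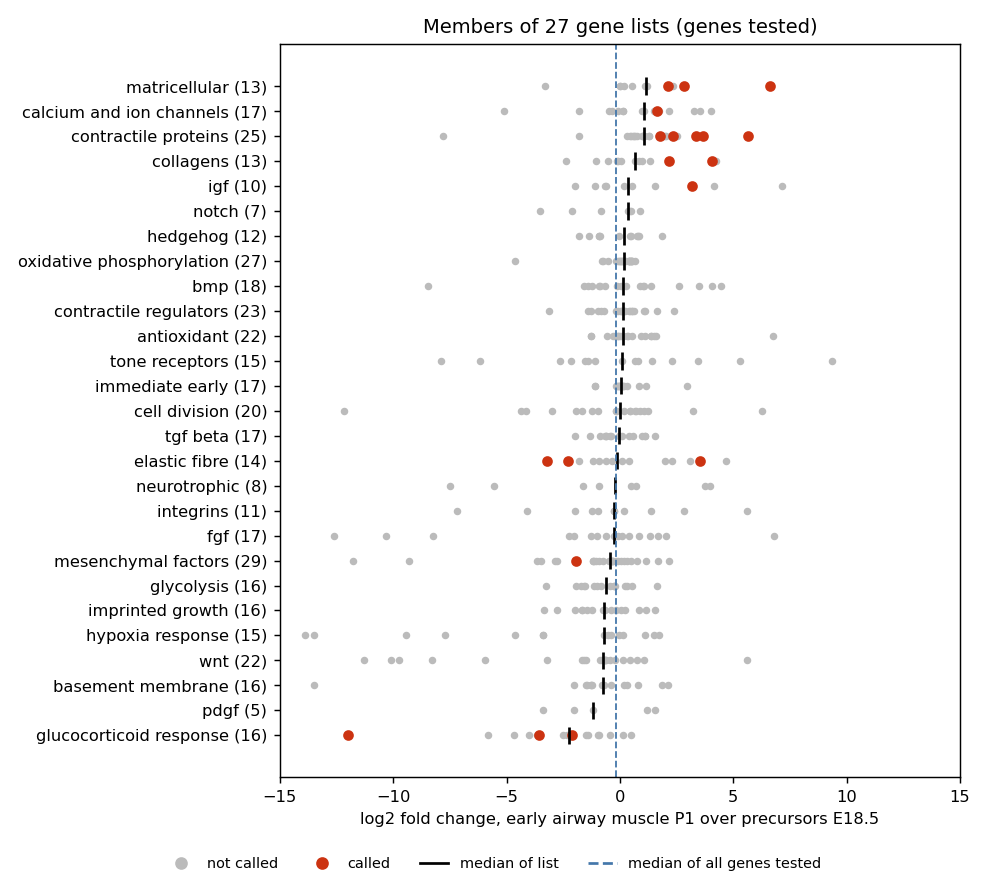
Log2 difference of early airway smooth muscle at P1 from precursors at E18.5 (x) for the members of 27 gene lists, with 1 point per gene, called genes in colour and the list median as a bar. Contractile proteins lie mostly above 0 with a median of 1.05, and glucocorticoid targets mostly below 0 with a median of −2.23.

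Markers of other cells were measured beside these differences. Vascular muscle markers summed to 126 and 105 CPM in precursors and 783 and 820 CPM at P1, of which Mustn1 made up 121 and 98.4 CPM and then 768 and 790 CPM (adjusted p = 0.00613, and 0.102 without the E18.5 male). Of the 8 listed markers found in the table, 3 and 1 were at 0 in the precursor mice (Map3k7cl in both) and 2 and 4 in the P1 mice (Olfr558 and Susd5 in both). Pericyte markers summed to 831 and 761 CPM and then 1035 and 1144 CPM. Kcnj8 was the 1 called of these 8, and Higd1b was at 0 in both P1 mice. Unlike the sum, 6 of the 8 genes had a log2 difference below 0, and the list median was −1.62. The mice did not overlap for 2 higher and 6 lower genes. Adventitial fibroblast markers summed to 788 and 863 CPM and then 1242 and 990 CPM, against 13384 and 7583 CPM in the adventitial fibroblasts of the P1 mice themselves. Dpt was the 1 called gene of the 9 tested on that list, and Ly6a was at 0 in all 4 mice. Of these 9 genes, 6 had a log2 difference below 0, and the list median was −1.75. The mice did not overlap for 3 higher and 4 lower genes. Over all tested genes 0.507% were called higher, 16.5% lay wholly higher and 29.7% wholly lower. Alveolar fibroblast markers summed to 92.5 and 154 CPM and then 59.5 and 71.7 CPM. Striated muscle markers summed to 10.8 and 8.71 CPM and then 183 and 59.0 CPM. Epithelial markers summed to 63.1 and 47.6 CPM and then 48.1 and 72.1 CPM, endothelial to 149 and 167 and then 90.0 and 121 CPM, and immune to 15.9 and 15.6 and then 9.94 and 6.22 CPM. Their part in the differences was not tested.

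The airway muscle and myofibroblast markers checked the subtype names. Airway muscle markers summed to 4990 and 5022 CPM in precursors, 11767 and 13049 CPM in early airway smooth muscle, and 3530 and 4820 CPM in the myofibroblasts of the P1 mice. Actg2, Cnn1 and Des of that list are also on the contractile list, so its sum is not one of airway muscle alone. Against the precursors 6 of the 10 had a log2 difference above 0, and Hhip, Lgr6 and Enpp2 were lower without being called. Against P1 myofibroblasts all 10 were above 0. Myofibroblast markers summed to 7131 and 8013 CPM in precursors and 14424 and 18885 CPM in early airway smooth muscle, which exceeded the 7716 and 8195 CPM of P1 myofibroblasts. None of either list was at 0 in these sums. Of the sum in early airway smooth muscle, Tgfbi gave 8617 and 13567 CPM and Aspn 4020 and 3088 CPM. The myofibroblast list thus did not set the P1 subtypes apart in the direction of their names. Pdgfra was at 316 and 151 CPM in P1 myofibroblasts against 60.1 and 71.9 CPM in early airway smooth muscle (adjusted p = 0.21).

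The 7 and 7 precursor cells at P1 were too few for a test and are described by their levels. Eln stood at 192 and 212 CPM in these cells, below both the E18.5 precursors and the P1 early airway smooth muscle. Tsc22d3 was at 133 and 66.3 CPM and Lox at 25.0 and 35.8 CPM, which are values like those of P1 early airway smooth muscle. Fmo2 was at 201 and 108 CPM, between both groups. Contractile genes differed among themselves in these cells. Acta2 was at 3356 and 4118 CPM, Actg2 at 121 and 658 CPM, Tagln at 189 and 137 CPM and Cnn1 at 0 and 268 CPM. Pdlim3, of the same list, was at 4116 and 2100 CPM, above both E18.5 precursor mice. The female value lay above and the male value just below both mice of P1 early airway smooth muscle. Aspn had no reads in them. Pdgfra was at 729 and 313 CPM. For Tsc22d3 and Lox, the P1 precursors thus had levels like those of P1 early airway smooth muscle, and for Aspn they did not.

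To place the differences among the contractile cells of the same animals, early airway smooth muscle was compared with myofibroblasts of the P1 mice (39 and 32 cells), with the mouse as a block. Of 14244 tested genes 29 were called (0.204%), 25 higher in early airway smooth muscle and 4 lower. Myh11 was at 1202 and 1322 CPM against 393 and 418 CPM in myofibroblasts (log2 1.61 ± 0.20, adjusted p = 0.032). Des was at 984 and 1403 CPM against 333 and 562 CPM (log2 1.41 ± 0.18, adjusted p = 0.034). Eln was at 1108 and 1010 CPM against 482 and 423 CPM (log2 1.20 ± 0.16, adjusted p = 0.048), so elastin RNA was higher in the airway muscle cells than in the myofibroblasts at P1. Cnn1 was at 2014 and 1477 CPM against 63.4 and 286 CPM (log2 3.65 ± 0.72, adjusted p = 0.092). The calls of Myh11, Des and Eln were each lost in 5 of the 6 fits without 1 mouse, with the exception of the fit without the P1 female (adjusted p 0.0542 to 0.129).

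Of the largest differences from myofibroblasts, Anxa8 had no reads in them. Pde4d, which breaks down cyclic AMP, was at 77.2 and 160 CPM against 1.13 and 2.52 CPM. Pgf, the placental growth factor, was at 89.6 and 67.9 CPM against 2.04 and 0.485 CPM. Hspa4l, a chaperone, was at 72.8 and 51.9 CPM against 0.113 and 0.0324 CPM, and Atp6v0e2, a subunit of the proton pump, was at 74.6 and 47.7 CPM against 0 and 0.0971 CPM. The genes lower in early airway smooth muscle that the rule named were Aard, at 13.8 and 25.1 CPM against 122 and 136 CPM, Car2, the carbonic anhydrase 2, at 1062 and 1042 CPM against 2869 and 4037 CPM, and Ccnd2, the cyclin D2, at 260 and 327 CPM against 759 and 1037 CPM. Every gene that the rule named here lost its call without at least 1 of the P7 or P7 hyperoxia mice, whose cells entered the fit for the spread, with adjusted p from 0.0532 to 0.107. The counts ranged from 0 without the P7 hyperoxia male (1527 genes at an unadjusted p under 0.05) to 604 without the P1 female, so that no call of this comparison held without that male. From the P1 libraries alone edgeR gave 0 calls and 863 genes under an unadjusted p of 0.05, while DESeq2 gave 2098 calls in the full fit.

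Adventitial fibroblasts, the connective tissue cells around airways and vessels, were present at both ages (26 female and 29 male cells at E18.5, then 138 and 67 at P1) and gave a measure of what changed with age in other cells of the same mice. An interaction term, with a block for the mouse, tested the difference of both changes. Of 15972 tested genes 20 were called (0.125%), 11 higher and 9 lower, and the median over all genes was −0.69. DESeq2 called 803 genes, 173 higher and 630 lower. With only the libraries compared in the fit edgeR called 0, with 1022 genes at an unadjusted p under 0.05. Leaving out 1 mouse gave 11 calls (without the P1 male) to 29 (without either P7 mouse). Aspn changed by 6.56 ± 0.48 more on the log2 scale towards airway muscle than in adventitial fibroblasts, where it was at 734 and 898 CPM at E18.5 and 1097 and 705 CPM at P1 (adjusted p = 0.0013). For Des the difference was 4.89 ± 0.51 (adjusted p = 0.0056) and for Prss35 6.21 ± 0.68 (adjusted p = 0.0074). Fmo2 was at 252 and 366 CPM and then 335 and 372 CPM in adventitial fibroblasts, and the difference of the changes was −6.89 ± 0.56 (adjusted p = 0.0016). These 4 calls held in the 10 fits without 1 mouse.

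For the hormone targets and for elastin the difference of the changes was not called. Tsc22d3 was at 309 and 385 CPM in adventitial fibroblasts at E18.5 and at 67.5 and 91.4 CPM at P1, and the difference of −1.58 ± 0.60 had an adjusted p of 0.6. Per1 was at 212 and 230 CPM and then 69.8 and 68.4 CPM, and Klf15 was at 120 and 182 CPM and then 4.41 and 8.40 CPM. Lox was at 1496 and 1366 CPM and then 419 and 395 CPM (difference −1.45 ± 0.51, adjusted p = 0.53). Tsc22d3, Per1, Klf15 and Lox were thus each lower at P1 in both adventitial mice too, without a test of that change alone. Eln was at 4692 and 7304 CPM and then 3788 and 7504 CPM in adventitial fibroblasts, and the difference of −2.15 ± 0.41 had an adjusted p of 0.11.

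Early airway smooth muscle at P7 and airway smooth muscle at P21 give the later levels of the same genes, as a description. Acta2 was at 9330 and 11511 CPM at P7 in normal air and 1721 and 2498 CPM at P21. Cnn1 was at 1529 and 1914 CPM and then 28.7 and 41.7 CPM, and Actg2 at 3077 and 4058 CPM and then 295 and 184 CPM, so for Acta2, Cnn1 and Actg2 the P21 levels were near or below those of the E18.5 precursors. Des and Tagln were at 185 and 231 CPM and at 200 and 195 CPM at P21, which are above both E18.5 mice. Eln was at 3100 and 2528 CPM at P7 and 948 and 966 CPM at P21. Fmo2 was at 39.1 and 60.4 CPM at P7 and 1731 and 2750 CPM at P21, and Tsc22d3 at 124 and 122 CPM and then 711 and 1352 CPM, so both low P1 levels were followed by levels near those of the precursors at P21. Hhip was at 977 and 1406 CPM at P7 and 6113 and 6946 CPM at P21.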

How the data were processed

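The deposited table held read counts per gene and cell, which the authors had not normalized, for 18072 genes and 5480 cells, with 0 mitochondrial genes. STAR 2.5.2b, HTSeq 0.10 and the build GRCh38 are named per the submitters' processing notes. That build is a human one, so no coordinates of the authors' are given, and the annotation, strand rule and filters are not given in the sources used here. Without molecular identifiers a count is of reads, so intervals and floors cover counting error only. The reads in the table were 91.4% of the coverage per cell in the labels (median cell). Promoter windows came from RefSeq, and 1 of the 285 cells came from a CD31 sort.

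Cells were grouped by the subtype and mouse in the labels and counts were summed per mouse and subtype, since the mouse is the replicate. Cells were not clustered again, and no doublet caller was run. Sums were fitted with edgeR 4.0.16 in R 4.3.3 (TMM, filterByExpr, two-sided quasi-likelihood test, Benjamini-Hochberg over all genes tested, threshold 0.05). The main fit held 10 libraries: the 4 compared, early airway smooth muscle at P7 and P7 hyperoxia, and airway smooth muscle at P21, with terms for sex and group. In the mice compared, those of 1 sex share a run, apart from 1 precursor cell, but are separate animals. In the comparisons with myofibroblasts (12 libraries) and adventitial fibroblasts (20 libraries) the same mice gave both classes, so the mouse was a block by design. Adventitial fibroblasts joined the early and later subtype. A log2 difference within a sex used a pseudocount of 0.5 CPM. A fold against 1 to 3 reads has an exact conditional 95% interval.

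Genes were named by rule: called, a mean of at least 50 CPM where higher, and the same direction in both sexes, taking the 10 largest rises, the 10 largest falls and the 5 lowest adjusted p not yet named. For the comparison with myofibroblasts up to 5 each way were taken, and for that with adventitial fibroblasts up to 4. Members of the 41 gene lists were named with their list. The members and lists were chosen with earlier results of these data known. Of the listed symbols 4 were matched by an older name and 3 were not found. Alternatives were DESeq2 1.42.0, limma 3.58.1 (voom, or the mean CPM of cells), RLE scaling, other filters and libraries, thinning, and leaving out each mouse. The fits were tested on simulated data.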

Additional observations from a re-analysis of the deposited data

Results flagged for a closer look

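For 8 genes the change from precursors to early airway smooth muscle differed from the change of adventitial fibroblasts over the same ages, by the interaction test in edgeR with the mouse as a block. The values are differences of log2 changes. They were 10.4 for Ackr3, a scavenger receptor of chemokines, 6.56 for Aspn, 6.21 for Prss35 and 4.89 for Des. They were −18.9 for Ebf2, a transcription factor of mesenchyme, −9.88 for Lpl, the lipoprotein lipase, −9.74 for Cdh4, the R-cadherin, and −9.67 for Mustn1.

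Where a group held few reads, the size of such a value depends on the prior count and is not a measured fold. Ackr3 was at 0 and 0.0149 CPM in precursors and 32.5 and 52.1 CPM in early airway smooth muscle, against 33.1 and 42.2 CPM and then 125 and 117 CPM in adventitial fibroblasts. Ebf2 was at 38.1 and 18.3 CPM in precursors and 0.0715 and 0 CPM in early airway smooth muscle, against 0 and 0.181 CPM and then 94.8 and 7.28 CPM in adventitial fibroblasts. Lpl was at 2.93 and 11.3 CPM and then 0.107 and 0.0375 CPM, against 6.96 and 14.6 CPM and then 198 and 57.2 CPM. Cdh4 was at 243 and 281 CPM and then 154 and 143 CPM, against 0.0405 and 0.109 CPM and then 17.0 and 85.6 CPM. Mustn1 was higher at P1 in both classes, from 121 and 98.4 CPM to 768 and 790 CPM and from 0 and 0 CPM to 7.09 and 17.7 CPM, so its negative value rests on the adventitial mice at 0 reads.

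The calls of Ackr3, Aspn, Prss35, Des and Cdh4 held in the 10 fits without 1 mouse. Ebf2 was lost without either E18.5, either P1 or the P21 male mouse (adjusted p 0.055 to 0.187), Lpl without either E18.5 or P1 mouse (0.0791 to 0.142) and Mustn1 without either E18.5 mouse (0.06 to 0.0648).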

How the results depend on the processing

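In the comparison of early airway smooth muscle at P1 with precursors at E18.5 (95 calls), DESeq2 gave 950 calls, no filter on low counts 143, a filter of at least 10 CPM in both mice 143, the libraries compared alone 51, limma-voom 216 and averaged cells with limma 228. The newer quasi-likelihood method of edgeR (legacy = FALSE), tried after the data were seen, gave 182. Leaving out 1 mouse gave 26 (without the E18.5 male) to 170 (without the P21 male). A group left with 1 mouse was assumed to vary like the others. With myofibroblasts (29 calls), DESeq2 gave 2098, no filter 124, and the libraries compared alone 0. Leaving out 1 mouse gave 0 to 604, and no value without an E18.5 or P21 mouse, which are not in that fit. With adventitial fibroblasts (20 calls), DESeq2 gave 803, no filter 32, and the libraries compared alone 0 (1022 genes at an unadjusted p under 0.05). Leaving out 1 mouse gave 11 to 29. Without the replicate block there were 127, 74 and 40 calls in the 3 comparisons, which is beyond 1.5 times for both comparisons with the mouse as block. Leaving out 1 mouse gave elastic fibre medians of −0.35 (without the P1 male) to 0.045 and collagen medians of −0.12 to 0.73 (without the E18.5 male). The elastic fibre median turned from −0.14 to 0.045 without the E18.5 female, and the collagen median from 0.66 to −0.12 without the P1 male. Of the alternatives for named genes 1134 kept direction and call and 246 kept direction and lost the call. The causes were not tested. With 2 mice a side, few reads in 1 group (Anxa8, Klf15) leave a ratio with a wide interval.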

Other observations

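Among called genes that the lists and the naming rule had not brought up, several belong to the cytoskeleton, the cell surface and the matrix. They were chosen after their values were seen. Vim, the intermediate filament vimentin, was at 478 and 548 CPM in precursors and 1301 and 1624 CPM in early airway smooth muscle at P1 (log2 1.57 ± 0.28, adjusted p = 0.0415). Lgals1, the secreted lectin galectin 1, was at 1163 and 1163 CPM and then 5298 and 5522 CPM (log2 2.27 ± 0.38, adjusted p = 0.0288). Cav1, which forms the membrane pits called caveolae, was at 61.6 and 99.1 CPM and then 597 and 467 CPM (log2 2.84 ± 0.43, adjusted p = 0.0164). Cd44, a receptor for hyaluronan, was at 103 and 135 CPM and then 547 and 891 CPM (log2 2.63 ± 0.32, adjusted p = 0.00448). The calls of these 4 genes were lost without either E18.5 mouse (adjusted p 0.0744 to 0.439), those of Vim, Lgals1 and Cav1 also without the P1 female (0.0785 to 0.129), and those of Vim and Lgals1 also without the P1 male or either P7 mouse (0.0562 to 0.325).

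In the 7 and 7 precursor cells at P1, Vim was at 1104 and 1381 CPM and Lgals1 at 3040 and 3780 CPM, which for Lgals1 lies between the E18.5 precursors and early airway smooth muscle. In adventitial fibroblasts Vim was at 971 and 995 CPM at E18.5 and 1575 and 1618 CPM at P1, and Lgals1 at 1779 and 1545 CPM and then 4890 and 4680 CPM. The cell-cycle gene Ccnd2 was at 50.2 and 42.6 CPM in the E18.5 precursors and 260 and 327 CPM in early airway smooth muscle (log2 2.71 ± 0.37, adjusted p = 0.00931), and at 428 and 180 CPM in the P1 precursors. Its call was lost without either E18.5 mouse or the P1 male (0.0689 to 0.185).

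Secreted matrix genes went both ways. Spon2, the secreted spondin 2, was at 818 and 804 CPM in precursors and 2879 and 5323 CPM at P1 (adjusted p = 0.00713). Its call was lost without either E18.5 mouse or the P1 male (0.0668 to 0.165). The matrix-degrading gelatinase Mmp2 was at 2532 and 3259 CPM and then 732 and 517 CPM (log2 −2.20 ± 0.36, adjusted p = 0.025). It was lost without the E18.5 male, either P1 or either P7 mouse (0.0507 to 0.291). Fibulin 1, the matrix protein encoded by Fbln1, was at 513 and 607 CPM and then 78.3 and 132 CPM (log2 −2.36 ± 0.38, adjusted p = 0.0217), and was lost without either E18.5 or either P1 mouse (0.069 to 0.19). The clock repressor Nr1d1 was at 0.311 and 0.320 CPM and then 9.44 and 12.2 CPM (adjusted p = 0.0154, and 0.0689 to 0.207 without either E18.5 mouse or the P1 male), while Per1 of the same clock was lower at P1. In adventitial fibroblasts Nr1d1 was at 0.0809 and 0.0363 CPM at E18.5 and 16.5 and 22.8 CPM at P1.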
